A study of Mus musculus with 42 samples.

Results

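Hybrid passage 15 (P15) embryonic stem cells (ESCs) were compared with the inner cell mass (ICM) of hybrid blastocysts, the tissue from which such cells are derived. The comparison uses 4 of the 42 bead arrays of the series, 2 of P15 and 2 of ICM, picked by their labels. Earlier results of these data were known when the comparison was chosen. The labels give both groups as hybrid mouse embryos or cells of the cross B6 x C3H. The study's methods also list, for this run and other experiments together, crosses of such F1 hybrids with CD1 mice and with OG2 mice, which carry an Oct4-driven GFP transgene, and do not say which samples these gave. The ICMs were taken from embryonic day 3.5 blastocysts by immunosurgery, which lyses the outer trophectoderm with antibody and complement, and were not cultured. The ESCs had been derived and kept to passage 15 on gelatin in N2B27 medium with 1000 U/ml LIF and R2i, which is 1 µM of the MEK inhibitor PD0325901 together with 10 µM of SB431542, which blocks the kinase of type I TGF-β receptors. ESCs could start from whole blastocysts or from isolated ICMs, and which of these gave the P15 cells is not stated. Each ICM sample was a pool of ICMs, and the methods call the samples of a group biological replicates. Whether the 2 P15 arrays came from separate lines is not stated, so p-values may not cover the spread between lines. They rest on the spread between replicates pooled over all 11 hybrid groups, not on the 4 compared arrays alone. No sorting of the P15 cells is described, and all RNA was amplified before hybridization. Of 25697 probes, those detected on at least 2 of the 22 hybrid arrays stood for 10013 genes, and each of these was tested in a linear model over all 11 hybrid groups.

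The ICM of the blastocyst holds the epiblast, whose cells are pluripotent, and the primitive endoderm, which forms extraembryonic membranes. The transcription factors Nanog and Gata6 mark these lineages, and FGF signaling through MEK and ERK drives cells toward primitive endoderm. In culture with a MEK inhibitor and LIF, which acts through STAT3, epiblast cells can be propagated as rapidly dividing ESCs.

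The ICM arrays were dim. They detected 24.2% and 18% of the probes, against 41% and 39.6% on the P15 arrays and 33% to 45.6% on the other hybrid arrays, and the correlation between replicates was 0.908 for ICM and 0.995 for P15 over 13923 probes. The lowest value of a detected probe was 6.41 and 7.41 log2 on the ICM arrays and 4.78 and 4.85 on the P15 arrays, so a gene below about 7 log2 could be seen in P15 and not in ICM. All levels below are normalized log2 intensities of 1 probe, and a difference between genes in such a level cannot be read as a difference in abundance. Of 5 defining fibroblast and 3 blood markers on the array none was detected in the ICM, and 1 fibroblast marker on 1 P15 array. In a wider list of 20 fibroblast genes, however, 10 were tested, of which 6 were lower in P15 and 1 higher. Prrx1, S100a4 and Timp1 were detected on both ICM arrays and changed by -2.34, -3.32 and -1.08 log2 (adjusted p = 2.75e-05, 8.37e-06 and 0.00234), against -0.07, -0.15 and 0.45 when BALB/c ICM took the place of hybrid ICM. Their part in the results was not tested. A gene was called when it changed at least 2-fold with an adjusted p of at most 0.01.

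Across all genes tested 4813 (48.1%) were called, 2419 (24.2%) higher and 2394 (23.9%) lower in P15. Detection in the ICM divided them. Among the 3463 genes detected on both ICM arrays 59.1% were called. Of these genes 426 (12.3%) were higher and 1622 (46.8%) lower, a selection by ICM level that by itself favours falls, and their median log2 change was -0.96. Of the 1623 genes detected on 1 ICM array 374 (23%) were higher and 466 (28.7%) lower. Of the 4927 genes detected on neither, 39.1% were called, and 1619 (32.9%) were called higher, and for these only a lower bound of the fold is known. A further 306 (6.21%) of them were called lower, although the brighter group was not detected. The ICM and P15 values did not overlap in 79.2% of all genes tested. All 4 arrays detected 3141 genes, of which 55% were called, 426 (13.6%) were higher and 1300 (41.4%) lower. This split rested on the scaling of the arrays, because only 24.7% of the calls among these genes were rises after quantile normalization but 87.3% when each array was set to the same median (median log2 change 1.5 in place of -0.75). Gene groups are therefore read below against the median of all genes detected on both ICM arrays, which was -0.96 here, -0.58 with cyclic loess and 1.26 with median scaling.

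**Figure D1:**
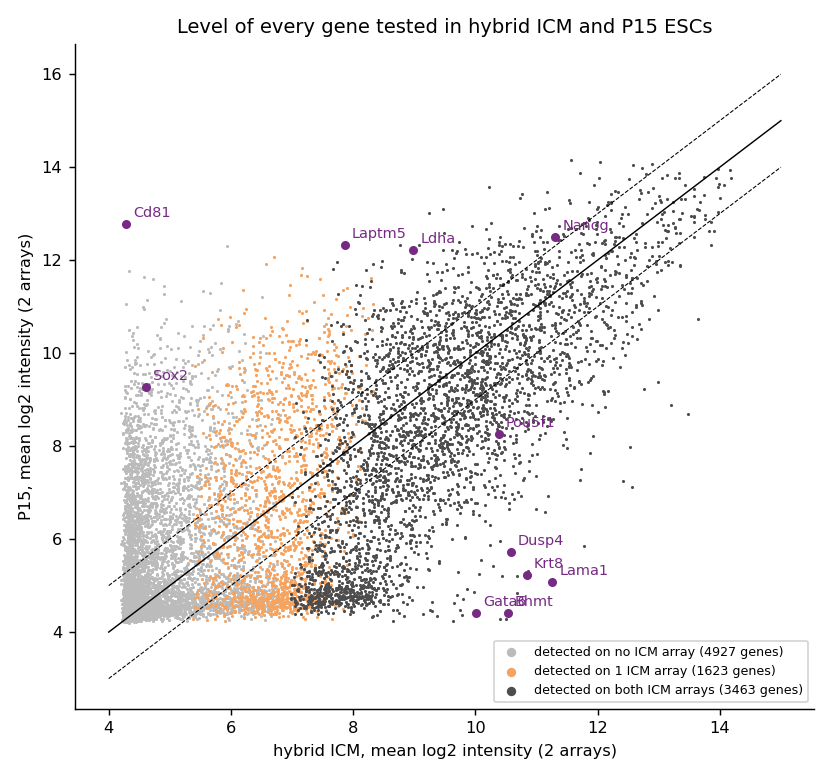
Mean log2 intensity of each gene tested in hybrid ICM (x axis, 2 arrays) and in P15 ESCs (y axis, 2 arrays), shaded by the number of ICM arrays that detected it. The solid line marks equal levels and the dashed lines a 2-fold change. The 4927 genes that neither ICM array detected lie at the left, with Cd81 and Sox2 among those at a high P15 level, while Lama1, Krt8, Bhmt, Gata6 and Dusp4 lie far below the line.

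Of the 10 largest falls 2 were in the primitive endoderm list (Lama1 and Gata6), 1 in the trophectoderm list (Krt8) and 2 in the preimplantation list (Bhmt and Timd2), and 5 were in none of the lists. Lama1, the laminin alpha chain of early basement membranes, had values of 11.14 and 11.37 on the ICM arrays and 5.15 and 5.01 on the P15 arrays. The groups lay far apart, with a log2 change of -6.18 ± 0.24 (SE), adjusted p = 2.77e-10. Krt8, a keratin of simple epithelia and of trophectoderm, had 10.97 and 10.71 on the ICM arrays and 5.55 and 4.90 on the P15 arrays (-5.62 ± 0.24 (SE), adjusted p = 5.21e-10). Gata6, the transcription factor that specifies primitive endoderm, had 10.09 and 9.94 on the ICM arrays and was detected on neither P15 array, which puts it at least 36.8-fold lower in P15 (adjusted p = 5.06e-08). Bhmt, the betaine-homocysteine methyltransferase of methionine synthesis, and Timd2, a receptor for H-ferritin, were likewise at or near 10 log2 in the ICM and not detected in P15, at least 52.7-fold and 48.3-fold lower. All 3 genes were high on both ICM arrays. Fgf10, a fibroblast growth factor, had 10.84 and 10.53 on the ICM arrays and 4.95 and 5.48 on the P15 arrays (-5.47 ± 0.43 (SE), adjusted p = 1.1e-07). Zyx, the focal adhesion protein zyxin, had 11.68 and 11.88 on the ICM arrays and 5.88 and 5.84 on the P15 arrays (-5.92 ± 0.28 (SE), adjusted p = 7.46e-10). Glrx, the thiol reductase glutaredoxin, had 12.58 and 12.54 on the ICM arrays and 7.31 and 6.93 on the P15 arrays, so that both P15 arrays still detected it. Nlrp4c, a member of the NLR family expressed in oocytes and early embryos, had 11.09 and 10.26 on the ICM arrays and 5.05 and 4.61 on the P15 arrays, and 1 P15 array detected it. Ctcfl, the germline paralogue of the insulator protein CTCF, had 10.59 and 11.13 on the ICM arrays and 5.04 and 5.60 on the P15 arrays, and its log2 change of -5.54 ± 0.89 (SE), adjusted p = 6.73e-05 carried the largest error of the 10.

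The 10 largest rises among genes that the ICM arrays detected were smaller, from 3.51 to 4.46 log2. Laptm5, a lysosomal membrane protein known from hematopoietic cells, had 6.91 and 8.82 on the ICM arrays and 12.40 and 12.25 on the P15 arrays (4.46 ± 0.45 (SE), adjusted p = 1.12e-06). The ICM arrays differed by nearly 2 log2 there, yet both lay below either P15 array. Fignl1, an ATPase that acts in DNA repair by recombination, had 7.81 and 7.67 on the ICM arrays and 12.03 and 11.87 on the P15 arrays (4.22 ± 0.38 (SE), adjusted p = 3.65e-07). Mis18a, which is needed to load the centromeric histone CENP-A, had 8.55 and 7.87 on the ICM arrays and 11.88 and 11.69 on the P15 arrays (3.58 ± 0.39 (SE), adjusted p = 2.28e-06). Cul4a, the scaffold of a ubiquitin ligase, had 9.10 and 7.55 on the ICM arrays and 11.97 and 11.88 on the P15 arrays. Wsb1, an adaptor of another such ligase, had 9.19 and 8.34 on the ICM arrays and 12.20 and 12.47 on the P15 arrays. In both genes the groups lay apart. Ccng1, cyclin G1, a target of p53, had 8.51 and 8.44 on the ICM arrays and 11.93 and 12.03 on the P15 arrays (3.51 ± 0.28 (SE), adjusted p = 1.09e-07). Zfand6, a zinc finger protein that binds ubiquitin, Naa16, a subunit of an N-terminal acetyltransferase, Slc12a2, the sodium, potassium and chloride cotransporter, and Plekha1, a phosphoinositide-binding protein, rose by 4.15, 3.53, 3.77 and 3.64 log2 (adjusted p = 2.2e-06, 4.4e-07, 2.46e-06 and 1.15e-07). A second Plekha1 probe, not detected on either ICM array, changed by 0.82 log2 and was not called, whereas 2 further Naa16 probes rose by 5.43 and 5.03.

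**Figure D2:**
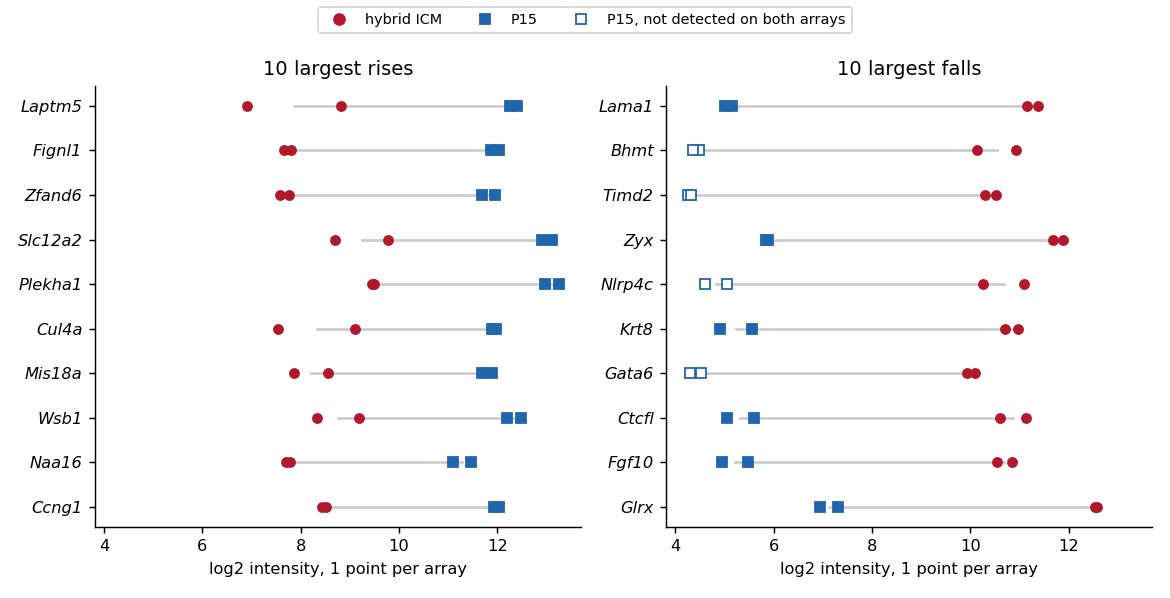
Log2 intensity on each ICM array (circles) and each P15 array (squares) of the 10 genes with the largest rise (left) and the 10 with the largest fall (right) among genes detected on both ICM arrays. Open squares are P15 values of genes not detected on both P15 arrays, and grey lines join the group means. No ICM value overlaps a P15 value in any of the 20 genes, and ICM replicates differ by up to about 2 log2 (Laptm5).

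Genes that neither ICM array detected gave larger differences, stated as bounds. Cd81, a tetraspanin of the cell surface and an imprinted gene in placenta, had 12.75 and 12.79 on the P15 arrays and 4.24 and 4.32 on the ICM arrays, below their floors, and was at least 58-fold higher in P15. Fnip1, the partner of folliculin in nutrient sensing, was at least 41.9-fold higher. Stmn2, a stathmin that destabilizes microtubules and is best known from neurons, was at least 28.8-fold higher, with 11.74 and 11.78 in P15. Zc2hc1a, a zinc finger gene, and Sh3gl2, endophilin A1 of synaptic vesicle endocytosis, reached at least 26.4-fold and 25.7-fold. Atad5, which unloads PCNA from replicated DNA, Esco2, which acetylates cohesin in S phase, and E2f5, an E2F factor bound by pocket proteins, were at least 24.3-fold, 23.2-fold and 21.6-fold higher. All 8 were above 11 log2 on both P15 arrays.

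Of the primitive and visceral endoderm list 26 genes were tested, and 16 of them were lower and 0 higher in P15. Where both ICM arrays detected the gene, 13 of 14 were lower, with a median log2 change of -3.99 against -0.96 for all such genes. The list median minus that of all such genes was -3.02 log2 after quantile normalization, -3.06 with cyclic loess and -3.46 with median scaling, and no member was called higher under any of these. Pdgfra, the PDGF receptor that marks primitive endoderm, had 10.02 and 9.47 on the ICM arrays and 4.47 and 4.46 on the P15 arrays, at least 30.6-fold lower in P15. Sox17, an endoderm transcription factor, had 9.13 and 9.46 on the ICM arrays and 4.38 and 4.53 on the P15 arrays and was at least 22.3-fold lower. Aqp8, a water channel, was at least 28.5-fold lower (9.70 and 9.59 on the ICM arrays and 4.71 and 4.53 on the P15 arrays), and Dab2, an endocytic adaptor of endoderm and trophectoderm, at least 16.9-fold lower. Not every marker could be read, since Gata4 and Sox7 were detected on none of the 4 arrays. In such bulk samples fewer cells of a type and less RNA per cell cannot be told apart.

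Col4a1 and Col4a2, the chains of basement membrane collagen, were both lower in P15. Col4a1 had 8.82 and 10.11 on the ICM arrays and 6.78 and 6.91 on the P15 arrays (-2.62 ± 0.35 (SE), adjusted p = 1.5e-05), and Col4a2 had 9.65 and 8.93 on the ICM arrays and 4.65 and 4.66 on the P15 arrays and was at least 22.3-fold lower. With median scaling the Col4a1 change was -0.40 and no longer called. The genes lie head to head on chromosome 8, with RefSeq start sites at 11312826 on the minus strand for Col4a1 and 11312805 on the plus strand for Col4a2, 21 bases apart (GRCm38.p6). The promoter window of Col4a1, from 250 bases before to 50 after its start (chr8:11312777-11313076, minus strand, from RefSeq), is shown because it holds the start of both genes, and the 78 capital letters are those it shares with the Col4a2 window.
Col4a1: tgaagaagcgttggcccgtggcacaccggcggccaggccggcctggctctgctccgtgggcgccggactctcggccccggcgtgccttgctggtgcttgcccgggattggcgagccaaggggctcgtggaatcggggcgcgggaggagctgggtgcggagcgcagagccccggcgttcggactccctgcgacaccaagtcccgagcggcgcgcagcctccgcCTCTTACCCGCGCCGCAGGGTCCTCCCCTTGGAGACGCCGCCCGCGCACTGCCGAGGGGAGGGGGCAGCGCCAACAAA
For the list as a whole, the GATA motif AGATAA on either strand was searched in the same windows. It was found in 2 of the 13 lower genes with a window (15.4%), Dab2 and Hnf4a, against 12.7% of all 27025 genes of the table. The first of the Dab2 windows (chr15:6299539-6299838, plus strand) shows the match in capitals, as its reverse complement.
Dab2: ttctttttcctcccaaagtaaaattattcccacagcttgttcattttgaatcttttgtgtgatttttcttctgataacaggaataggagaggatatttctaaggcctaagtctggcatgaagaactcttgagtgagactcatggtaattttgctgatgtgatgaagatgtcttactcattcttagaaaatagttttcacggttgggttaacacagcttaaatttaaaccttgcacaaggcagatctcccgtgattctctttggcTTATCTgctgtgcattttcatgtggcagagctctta
These matches are a description of the letters in the window.

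Of the basement membrane list 11 of 21 genes tested were lower and 6 higher, and of the 9 that both ICM arrays detected 8 were lower (median log2 change -2.62). Besides Lama1 and Col4a2 these included Itga3 and Itga5, integrin chains that bind laminin and fibronectin, respectively, with log2 changes of -3.62 (adjusted p = 1.1e-06) and -3.54 (adjusted p = 4.64e-05). Against BALB/c ICM the Itga5 change was -0.09 (adjusted p = 0.94).

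Of 28 trophectoderm genes tested 8 were lower, 4 higher and 16 not called. Of the 10 detected on both ICM arrays 7 were lower and 1 higher (median -3.75), and of the 6 detected on all 4 arrays 3 were lower and 1 higher. Immunosurgery had been applied to the ICMs to remove the trophectoderm layer, and how complete the removal was is not stated and was not tested. Cdx2, the homeobox factor of trophectoderm, had 10.19 and 9.37 on the ICM arrays and 4.36 and 4.39 on the P15 arrays and was at least 31.3-fold lower in P15. Krt18, the partner of Krt8, was at least 21.9-fold lower (9.25 and 9.28 on the ICM arrays and 4.38 and 4.57 on the P15 arrays). The 1 gene higher was Tfap2c, which is also expressed in ESCs and germ cells (11.99 and 11.71 on the ICM arrays and 12.83 and 12.98 on the P15 arrays). A second Tfap2c probe that both ICM arrays detected fell by 2.26 log2, and another, detected on 1 of them, rose by 2.16, so its probes disagreed. Leaving out ICM replicate 2 or P15 replicate 2 ended its call (0.92 and 0.99 log2). Neither ICM array detected Eomes or Elf5, regulators of trophoblast stem cells. Against BALB/c ICM of the same array type 17 of the 28 genes were lower and 2 higher, Eomes (-3.13) and Elf5, which neither P15 array detected, among the lower. The summed linear level of 8 trophectoderm markers was 8069 and 6533 on the ICM arrays and 7486 and 8234 on the P15 arrays, in P15 nearly all from Tfap2c.

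**Figure D3:**
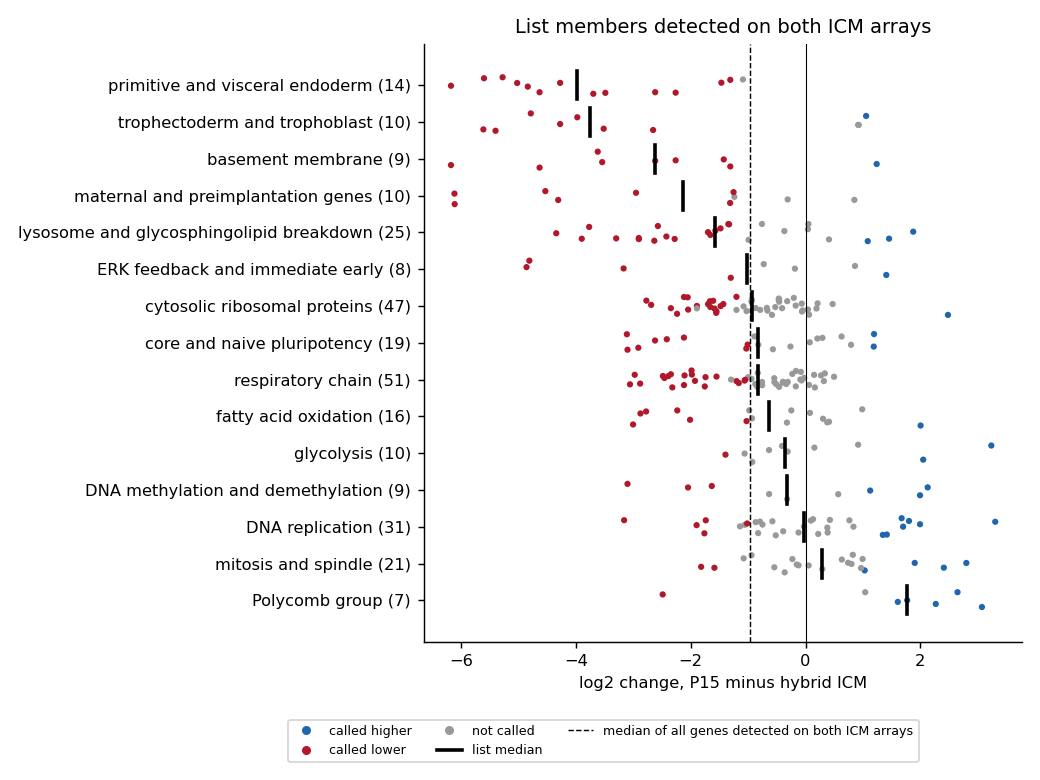
Log2 change (P15 minus hybrid ICM, x axis) of each member detected on both ICM arrays in 15 gene lists, with the number of such members in brackets. Black bars are list medians and the dashed line is the median of all genes detected on both ICM arrays (-0.96). The primitive endoderm median lies lowest at -3.99 and the Polycomb median highest at 1.77.

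The genes of the pluripotency network did not move as 1 group. Of 31 tested 9 were higher and 9 lower, and among the 19 that both ICM arrays detected 2 were higher and 8 lower. Their median of -0.82 lay within 0.14 of that of all such genes, and with median scaling 12 were higher and 1 lower. Against BALB/c ICM 9 of the 31 were higher and 4 lower, and in the BALB/c run 15 of 30 were higher and 6 lower. Nanog had 11.33 and 11.29 on the ICM arrays and 12.49 and 12.52 on the P15 arrays and was higher in P15 (1.19 ± 0.26 (SE), adjusted p = 0.000873). This call was lost with cyclic loess (0.99 log2) and with array weights (adjusted p = 0.0142), and in the BALB/c run the change was 0.86 log2, below 2-fold. Esrrb, an orphan nuclear receptor of naive cells, had 12.33 and 12.21 on the ICM arrays and 12.26 and 12.43 on the P15 arrays, the groups overlapping. Pou5f1, which encodes OCT4, had 10.31 and 10.46 on the ICM arrays and 8.34 and 8.19 on the P15 arrays, a log2 change of -2.12 ± 0.45 (SE), adjusted p = 0.000701, and a second probe fell by 3.98. With median scaling the main probe changed by 0.38 instead, and against BALB/c ICM by -0.79 (adjusted p = 0.18). Sox2, the partner of OCT4, was detected on neither ICM array and had 9.05 and 9.50 in P15, at least 5.15-fold higher, although a second probe changed by 0.38 and was not called. Zfp42 and Klf4, detected on 1 ICM array, were called higher (1.86 and 2.21 log2), but 2 further Klf4 probes changed by 0.04 and -0.31, and without ICM replicate 2 neither gene was called (0.95 and 0.89 log2). Leaving out either P15 array also ended both calls (1.84 and 1.86 log2 for Zfp42, 2.23 and 2.15 for Klf4). Tdgf1, a Nodal coreceptor, was not called (10.63 and 10.82 on the ICM arrays and 10.00 and 9.81 on the P15 arrays).

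The largest falls of this list were in Klf5, Dppa3, Utf1 and Stat3. Klf5, a Krüppel-like factor active in the ICM, had 9.45 and 9.63 on the ICM arrays and 6.19 and 6.66 on the P15 arrays (-3.11 ± 0.31 (SE), adjusted p = 9.9e-07). Dppa3, which protects DNA from methylation changes in the zygote and germ line, had 11.06 and 10.78 on the ICM arrays and 7.83 and 7.81 on the P15 arrays (-3.10 ± 0.31 (SE), adjusted p = 9.38e-07). Stat3, the transcription factor downstream of LIF, had 7.59 and 8.06 on the ICM arrays and 5.20 and 5.20 on the P15 arrays (-2.62 ± 0.25 (SE), adjusted p = 6.81e-07), while its other 2 probes, not detected on the ICM arrays, were not called. Utf1, a chromatin-associated factor of ESCs, had 9.72 and 9.71 on the ICM arrays and 6.87 and 6.73 on the P15 arrays. With median scaling none of these 4 falls was called. Of formative and primed epiblast genes 14 were tested, 2 higher and 1 lower. Otx2, a homeobox factor of the postimplantation epiblast, was at least 6.94-fold higher in P15 (9.69 and 9.72, not detected in ICM), and Dnmt3b, a de novo DNA methyltransferase, rose by 1.13 log2 (adjusted p = 0.00163), a call that leaving out ICM replicate 2 or either P15 array ended (0.96, 1.13 and 1.14 log2).

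Some targets of ERK were far lower in P15, the group grown with a MEK inhibitor. The median of list members that both hybrid ICM arrays detected lay near that of all such genes. Of 27 feedback and immediate early genes tested 10 were lower and 3 higher, and of the 8 detected on both ICM arrays 4 were lower and 1 higher. Their median, -1.02, was within 0.05 of all such genes. Against BALB/c ICM of the same array type 11 of the 27 were lower and 1 higher. Over all genes 11% were lower and 11.6% higher in that comparison. In the BALB/c run 12 of 25 were lower and 4 higher, where 25.7% of all genes were called. Dusp4, an ERK phosphatase induced by the pathway, had 10.61 and 10.55 on the ICM arrays and 5.76 and 5.67 on the P15 arrays (-4.86 ± 0.37 (SE), adjusted p = 7.29e-08). Egr1, an immediate early transcription factor, had 10.31 and 9.80 on the ICM arrays and 5.54 and 4.96 on the P15 arrays (-4.81 ± 0.78 (SE), adjusted p = 7.97e-05). Dusp6, another ERK phosphatase, changed less, with 9.84 and 9.99 on the ICM arrays and 8.60 and 8.64 on the P15 arrays (-1.30 ± 0.33 (SE), adjusted p = 0.00318), and with median scaling it changed by 1.21. Junb, a JUN family gene, was at least 6.86-fold lower. Klf6, a Krüppel-like factor, rose (1.41 ± 0.34 (SE), adjusted p = 0.00195) but changed by -0.99 against BALB/c ICM, and Ccnd1, cyclin D1, was at least 7.73-fold higher. Of the LIF and STAT3 list 4 of 19 were higher and 6 lower, with Pim1 at -3.10 log2 and Socs3, the feedback inhibitor of the pathway, at 11.25 and 11.21 on the ICM arrays and 8.57 and 8.61 on the P15 arrays. Against BALB/c ICM these changed by -0.18 and -0.15 and were not called. The receptor chains Lifr and Il6st were not called (0.86 and 1.70 log2).

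Receptors and signal transducers of the TGF-β family were mostly out of reach of the ICM arrays. Of 18 TGF-β and Nodal pathway genes tested 5 were higher and 1 lower, and of 18 BMP pathway genes 5 were higher and 3 lower. Over all genes tested 24.2% were higher and 23.9% lower. Against BALB/c ICM 1 TGF-β and Nodal gene was higher and 1 lower, and 4 BMP genes were higher and 3 lower. In the BALB/c run 3 of 15 TGF-β and Nodal genes were higher and 1 lower, and 3 of 15 BMP genes were higher and 4 lower. Against hybrid ICM Tgfbr1, the receptor that SB431542 inhibits, was at least 11-fold higher in P15, with 10.37 and 10.37. Bmpr1a, a BMP receptor, and Smad1, the factor it phosphorylates, were at least 5.96-fold and 11.1-fold higher, although 1 of 3 Smad1 probes changed by -0.09. Smad4, the common partner of the SMADs, was measured on all arrays and had 9.63 and 9.79 on the ICM arrays and 11.35 and 11.51 on the P15 arrays (1.72 ± 0.34 (SE), adjusted p = 0.000387), against a change of -0.07 from BALB/c ICM. The ligand gene Bmp4 had 10.05 and 10.09 on the ICM arrays and 6.27 and 6.75 on the P15 arrays and was lower in P15 (-3.56 ± 0.37 (SE), adjusted p = 1.38e-06). Furin, the protease that cleaves Nodal and BMP precursors, changed by -4.90 log2 (adjusted p = 6.63e-06) on 1 probe and by -0.06 on another that the ICM arrays did not detect, and Smad6, an inhibitory SMAD, was at least 5.48-fold lower.

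Of 25 genes of the preimplantation embryo tested 10 were lower, 3 higher and 12 not called, and of the 10 that both ICM arrays detected 7 were lower and 0 higher, with a median of -2.13. Crxos, a homeobox gene of the early embryo, had 12.57 and 12.48 on the ICM arrays and 7.83 and 8.15 on the P15 arrays (-4.53 ± 0.30 (SE), adjusted p = 2.3e-08). Khdc3, a subunit of the oocyte subcortical complex, had 13.29 and 13.11 on the ICM arrays and 8.89 and 8.90 on the P15 arrays (-4.31 ± 0.22 (SE), adjusted p = 1.72e-09). Under median scaling 4 of these 10 were lower and 1 higher. The germ cell list was divided, with 8 of 25 genes higher and 6 lower. Tex19.1 fell (10.64 and 10.79 on the ICM arrays and 7.88 and 7.72 on the P15 arrays), as did Dmrt1 and Tdrd1, with log2 changes of -2.77 and -2.58, and Ddx4, the germ cell helicase, which neither P15 array detected, was at least 11.1-fold lower. Against BALB/c ICM Dmrt1 and Tdrd1 changed by 0.16 and -0.33, and none of the last 3 was called.

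Of 24 Polycomb genes tested 9 were higher in P15, 3 lower and 12 not called, and of the 7 detected on both ICM arrays 5 were higher and 1 lower, with a median of 1.77 that lay 2.74 above that of all such genes (2.17 with cyclic loess and 3.07 with median scaling). Mtf2, a cofactor of Polycomb complex PRC2, had 8.74 and 9.18 on the ICM arrays and 12.05 and 12.02 on the P15 arrays (3.08 ± 0.49 (SE), adjusted p = 6.93e-05). The core PRC2 subunits Suz12 and Eed had 10.85 and 10.69 on the ICM arrays and 13.39 and 13.45 on the P15 arrays and 10.50 and 10.65 on the ICM arrays and 12.38 and 12.31 on the P15 arrays, respectively. Ezh2, the methyltransferase of the complex, was below the ICM floor and at least 1.66-fold higher. Pcgf6, a subunit of a variant of the other Polycomb complex, PRC1, rose by 2.27 log2 and Phc2, a PRC1 subunit, changed by -2.49 (adjusted p = 5.8e-06 and 3.47e-06). Against BALB/c ICM 3 of the 24 were higher and 1 lower, with Suz12 and Eed changed by 0.33 and 0.43 (adjusted p = 0.679 and 0.286). Of 21 genes of DNA methylation 9 were higher and 4 lower, but 5 of the 9 rises were in genes that no ICM array detected. Both ICM arrays detected 9 of the 21 genes, of which 3 were higher and 3 lower. The median of these genes minus that of all such genes was 0.64, but -0.40 with cyclic loess and 0.86 with median scaling. Against BALB/c ICM 5 of the 21 were higher and 3 lower, and in the BALB/c run 6 of 19 were higher and 1 lower. Uhrf2, a paralogue of the cofactor of maintenance methylation, had 8.80 and 8.75 on the ICM arrays and 10.94 and 10.87 on the P15 arrays (2.13 ± 0.21 (SE), adjusted p = 9.68e-07), and Dnmt1, the maintenance methyltransferase, was detected on 1 ICM array and rose by 2.18 log2.

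Of 44 genes of mitosis and the spindle 17 were higher and 2 lower. Among the 21 detected on both ICM arrays, however, 4 were higher, 2 lower and 15 not called, and 10 of the 17 rises were in genes that no ICM array detected. Their median of 0.29 lay 1.26 above that of all such genes (1.06 with cyclic loess and 1.45 with median scaling). Mad2l1, of the spindle checkpoint, had 8.07 and 8.02 on the ICM arrays and 10.83 and 10.86 on the P15 arrays (2.80 ± 0.22 (SE), adjusted p = 1.09e-07). Nusap1, which bundles spindle microtubules, had 10.09 and 9.56 on the ICM arrays and 12.16 and 12.31 on the P15 arrays (2.41 ± 0.24 (SE), adjusted p = 8.35e-07). Anln, anillin of the cleavage furrow, rose by 1.90 log2 here and changed by -0.26 against BALB/c ICM. The 2 lower were Birc5, survivin (-1.82), and Foxm1, a transcription factor of mitotic genes (-1.59), and with median scaling these changed by 0.68 and 0.20. In DNA replication 13 of 40 were higher and 5 lower, and of the 31 detected on both ICM arrays 7 were higher and 5 lower (median -0.03). Cdc6, which licenses origins, had 7.48 and 8.80 on the ICM arrays and 11.54 and 11.35 on the P15 arrays (3.31 ± 0.41 (SE), adjusted p = 7.45e-06), Pcna, the sliding clamp, had 8.46 and 8.16 on the ICM arrays and 10.18 and 10.44 on the P15 arrays (2.00 ± 0.35 (SE), adjusted p = 0.000137), and Dut, the dUTPase, had 8.53 and 9.66 on the ICM arrays and 5.89 and 5.98 on the P15 arrays (-3.16 ± 0.47 (SE), adjusted p = 3.69e-05).

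Of 21 glycolysis genes 10 were higher and 2 lower, but 6 of the 10 were detected on no ICM array. Of the 10 glycolysis genes that both ICM arrays detected 2 were higher, 1 lower and 7 not called, with a median of -0.36. Against BALB/c ICM 7 of the 21 were higher and 0 lower, where 11.6% of all genes were higher and 11% lower. In the BALB/c run 11 of 18 were higher and 0 lower, where 25.7% of all genes were called. Ldha, lactate dehydrogenase A, had 9.20 and 8.77 on the ICM arrays and 12.18 and 12.26 on the P15 arrays (3.24 ± 0.21 (SE), adjusted p = 1.8e-08), and Hk2, hexokinase 2, had 11.02 and 10.88 on the ICM arrays and 13.15 and 12.86 on the P15 arrays (2.05 ± 0.26 (SE), adjusted p = 9.12e-06). Of 26 fatty acid oxidation genes 7 were lower and 3 higher, but with median scaling 14 were higher and 3 lower. Against BALB/c ICM 7 of the 26 were lower and 2 higher, and in the BALB/c run 10 of 26 were lower and 1 higher. The median of the 16 fatty acid oxidation genes detected on both ICM arrays was -0.63, and both this and the glycolysis median lay above the -0.96 of all such genes. Acaa2, Acadl, Acadvl and Cpt2, enzymes of mitochondrial β-oxidation, had log2 changes of -3.01, -2.88, -2.78 and -2.24 (adjusted p = 5.29e-08, 4.94e-06, 1.05e-07 and 5.63e-06), of which Acadl alone was still called with median scaling. A second Acadl probe, not detected in the ICM, changed by 0.09. Lysosomal genes were lower in 18 of 42 and higher in 7, and in 11 and 14 with median scaling. Smpd1, acid sphingomyelinase, had 10.96 and 11.02 on the ICM arrays and 6.67 and 6.62 on the P15 arrays (-4.34 ± 0.24 (SE), adjusted p = 4.18e-09), while 2 further probes, not detected in the ICM, changed by -0.51 and -0.59. Gaa, acid α-glucosidase, had 10.44 and 10.66 on the ICM arrays and 6.79 and 6.77 on the P15 arrays (-3.77 ± 0.32 (SE), adjusted p = 2.19e-07). Of 22 amino acid transporters 7 were higher and 8 lower. Slc7a3, which carries arginine and lysine, had 9.60 and 9.35 on the ICM arrays and 12.26 and 12.16 on the P15 arrays (2.74 ± 0.19 (SE), adjusted p = 4.31e-08), and Slc38a4, of the neutral amino acid family, had 8.94 and 9.49 on the ICM arrays and 5.91 and 5.95 on the P15 arrays (-3.28 ± 0.55 (SE), adjusted p = 9.77e-05). Slc1a1, a glutamate transporter, changed by -3.17 log2. The probes of Slc38a2 disagreed, with changes of 2.94, 3.94 and -2.06. Tfrc, the transferrin receptor of iron uptake, rose (8.47 and 8.45 on the ICM arrays and 11.77 and 11.92 on the P15 arrays).

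For ribosomal proteins and the respiratory chain the direction rested on the scaling. Of 54 cytosolic ribosomal protein genes 18 were lower and 3 higher after quantile normalization, 40 lower and 1 higher with cyclic loess, and 1 lower and 22 higher with median scaling. Of 56 respiratory chain genes 20 were lower and 0 higher, against 3 lower and 32 higher with median scaling. Their medians, -0.94 and -0.83 for genes detected on both ICM arrays, lay within 0.03 and 0.13 of that of all such genes. With cyclic loess the medians minus that of all such genes were -1.78 for ribosomal proteins and -0.61 for the respiratory chain, and with median scaling -0.47 and 0.14. Rps15 had 10.26 and 10.70 on the ICM arrays and 7.84 and 7.56 on the P15 arrays and Rpl27a 9.34 and 9.10 on the ICM arrays and 11.53 and 11.87 on the P15 arrays, so the first was lower and the second higher in P15. Ndufs7, of complex I, had 12.06 and 12.26 on the ICM arrays and 9.11 and 9.27 on the P15 arrays.

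Imprinted genes were called higher in 11 and lower in 3 of 22 tested, but only 1 of the 11 was detected on both ICM arrays. That gene was Gab1, an adaptor of receptor tyrosine kinases (9.87 and 9.50 on the ICM arrays and 12.26 and 12.04 on the P15 arrays). Mest, Ndn and Grb10 joined Cd81 among the bounds, at least 6.95-fold, 6.2-fold and 6.06-fold higher. Igf2r, the receptor that clears IGF2, had 8.59 and 9.47 on the ICM arrays and 5.95 and 5.76 on the P15 arrays and fell (-3.17 ± 0.29 (SE), adjusted p = 3.65e-07). Kcnq1, a potassium channel, changed by -3.21 log2 here and by -0.00 against BALB/c ICM.

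Between ICM and P15 lie R2i outgrowths of the ICM on days 0.5 to 5 (IO-0.5 to IO-5). ESCs at passages 2 and 4 (P2 and P4) follow them. Levels in these groups show where each change from the hybrid ICM level was seen. These groups belong to the same fit, and their values are given as a description. For each called gene detected on both ICM arrays, the first group was taken from which the mean stayed past the midpoint of ICM and P15. Of the 1622 lower genes 600 (37%) were past it from IO-0.5, 98 (6.04%) from P2 and 417 (25.7%) from P4. Of the 426 higher genes 52 (12.2%) were past it from IO-0.5 and 151 (35.4%) from P4. The starting point is the dim hybrid ICM pair, which differed from BALB/c ICM in 872 of the 1622 and 157 of the 426 genes. How far this bears on the changes seen by IO-0.5 was not tested. The 2 IO-5 arrays also differed in brightness (44.7% and 37.9% of probes detected). By this rule an IO-5 mean short of the midpoint puts a gene in a later group. How far the dimmer IO-5 array bears on the counts from P2 and P4 was not tested. Of the 13 lower members of the primitive endoderm list 10 were past the midpoint from P2. Gata6 still had 9.89 and 8.46 on the IO-5 arrays and 4.44 and 4.66 at P2. Lama1 was above its ICM level at IO-5 (12.58 and 12.55) and had 6.65 and 6.33 at P2. Krt8 and Cdx2 were above their ICM level at IO-0.5, with means of 12.59 and 11.91, and stood at 7.02 and 4.45 at P2. The 7 lower preimplantation genes were all past it by IO-2. Bhmt had a mean of 7.83 at IO-0.5 and 5.34 at IO-1. Egr1 was at 7.93 and 4.62 at IO-0.5, 1 array already below both P15 values, whereas Dusp4 was at 6.66 at IO-1, stood at 9.16 at IO-5 and ended at 5.71. Laptm5 and Ldha were past it from IO-0.5 (means of 11.98 and 10.74). Dppa3 was lowest at IO-3 (6.85) and reached 9.31 at P4, and Mtf2 and Suz12 stayed past the midpoint from P4, having been past it at IO-3 (10.57 and 12.18) but not at IO-5 (10.27 and 11.80).

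**Figure D4:**
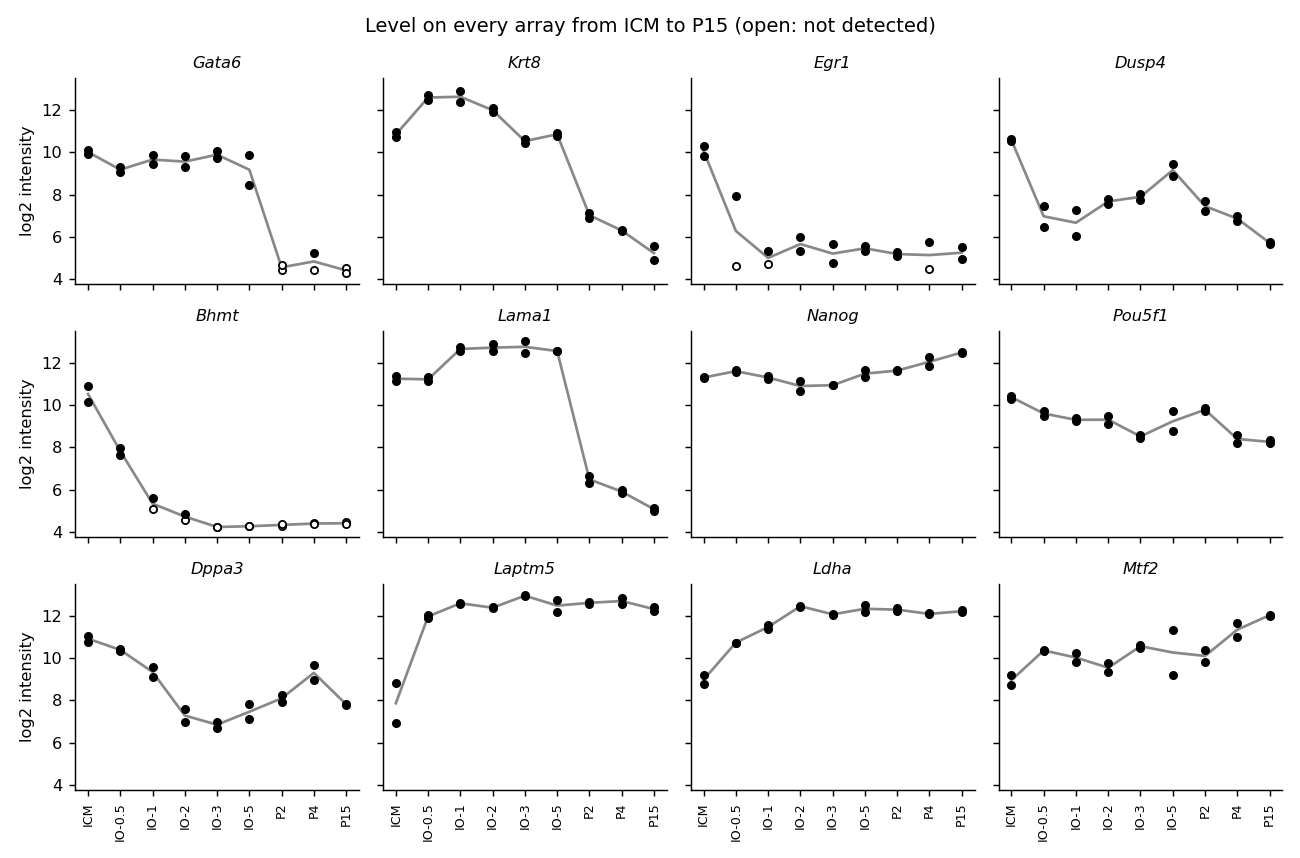
Log2 intensity (y axis) of 12 genes on each of 2 arrays of ICM, R2i outgrowths and ESC passages (x axis, in order), with a line through the group means and open points where the gene was not detected. Gata6 and Lama1 stay at or above 8 log2 to IO-5 and lie below 7 at P2, Bhmt is below 6 by IO-1, and Laptm5 is near 12 from IO-0.5.

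Because the hybrid ICM arrays were dim, the same P15 arrays were set against 2 BALB/c ICM arrays of the same array type. That comparison shares the P15 samples and differs in strain and in brightness (37.9% and 37.1% of probes detected), which cannot be told apart. It called 2264 genes (22.6%), 1159 higher and 1105 lower. Of the 426 rises that both hybrid ICM arrays detected 161 (37.8%) were called there, and of the 1619 seen only as bounds 731 (45.2%), although both BALB/c ICM arrays detected 1079 of them. Of the 1622 falls 593 (36.6%) were called. Of the 859 falls with a P15 mean above the lower ICM floor of 6.41, 417 were called there, and of the 763 below it 176. The hybrid and BALB/c ICM arrays themselves differed in 3336 of the 10013 genes by the same rule. BALB/c ESCs against BALB/c ICM, 3 arrays each on another array type and with no shared samples, called 2941 of 11450 genes (25.7%, adjusted p of at most 0.05). Of the 9208 genes tested in both, 565 rose in all 3 comparisons (23.8% of the rises here and 40.6% of those in the BALB/c run) and 331 fell (14.7% and 29.6%).

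Bhmt, Timd2, Zyx, Nlrp4c, Krt8, Gata6, Fgf10, Glrx and Lama1 were called lower in all 3 comparisons. Among the 5 that both P15 arrays detected, the changes against BALB/c ICM ran from -6.15 (Krt8) to -5.06 (Fgf10). Ctcfl was not, with -2.12 (adjusted p = 0.068) and 0.15 (adjusted p = 0.861), and its hybrid ICM level exceeded the BALB/c one by 3.42 log2 (adjusted p = 0.00364). Mis18a and Wsb1 rose here but changed by 1.11 and 0.61 against BALB/c ICM and by 0.06 and -0.28 in the BALB/c run. Fnip1, the second largest bound, changed by 1.98 and 0.48. Cd81, Stmn2 and Sh3gl2 rose by 4.74, 5.95 and 4.93 against BALB/c ICM and by 6.19, 6.03 and 5.32 in the BALB/c run. For Suz12 and Eed the hybrid ICM lay below the BALB/c ICM (-2.34 and -1.35 log2, adjusted p = 0.000698 and 0.001). Ctsc, a lysosomal protease, fell here (-3.90) and changed by 1.14 against BALB/c ICM, the hybrid ICM being 5.04 log2 above the BALB/c ICM (adjusted p = 3.34e-07). Whether strain, dim arrays or sampling lies behind these differences was not tested.

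**Figure D5:**
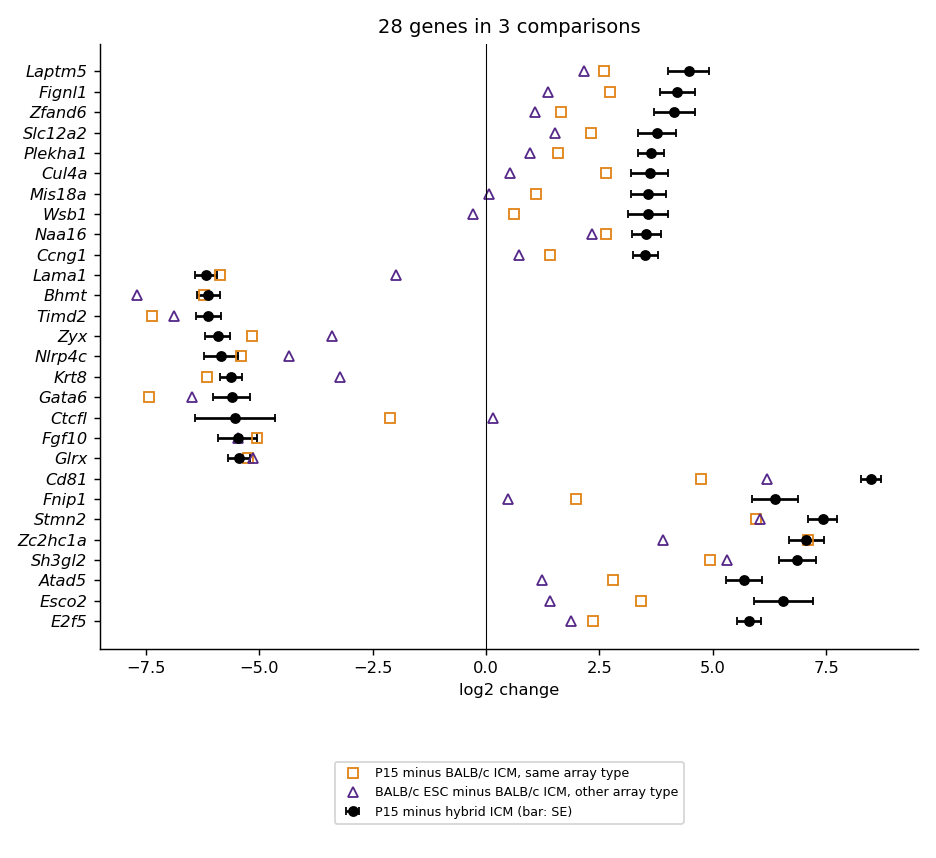
Log2 change (x axis) of the 28 genes named by size, for P15 against hybrid ICM (filled circles, bars are the SE of the fit), P15 against BALB/c ICM on the same array type (squares) and BALB/c ESC against BALB/c ICM on the other array type (triangles). Falls other than Ctcfl lie left of 0 in all 3, and rises such as Mis18a and Wsb1 lie near 0 in the BALB/c run.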

How the data were processed

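The authors deposited a bead-averaged intensity for each probe, exported from GenomeStudio without background correction, a detection p-value for each probe against negative control beads, and log2 values that they had made with neqc of limma. Versions of these programs are not given in the sources used here. Intensities of the 22 hybrid MouseRef-8 arrays were corrected and quantile normalized again with neqc (detection p-values for controls, offset of 16) in R 4.3.3 and limma 3.58.1, and the deposited log2 values served as an alternative. Tables and plots used Python 3.11.15, pandas 2.3.3 and matplotlib 3.10.9.

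Probes with 1 gene symbol (23978 of 25697, updated to RefSeq by Entrez ID for 23962) and a detection p under 0.05 on at least 2 arrays were kept, and the brightest stood for its gene. Group means were fitted by limma with 11 residual and 4.083 prior degrees of freedom, and p-values were adjusted by Benjamini and Hochberg over 10013 genes. Of 2322 genes with several kept probes, 106 called genes had another probe called the opposite way. Where a group was detected on neither array, the fold is a lower bound, set against the larger of its value and the lowest detected value on each array.

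Named genes were the 10 largest rises and falls among called genes that both ICM arrays detected, the 8 largest bounds, and per list the called members with the largest change plus its defining members. Foxm1 and second probes were named after their values were seen. The comparison and the gene lists were chosen with earlier results of these data known. On simulated data the fit called 8, 28, 37 and 45 of 50 genes changed by 1, 1.5, 2 and 3 log2, and 1 of 9813 unchanged genes. The simulation used normal noise on normalized values, with the spread of each gene pooled over the groups. It therefore could not show false calls that come from noisier ICM arrays or from the scaling. Alternatives covered background, offset, scaling, filters, probes, arrays fitted, weights, block and replicates left out. The first run (17 arrays fitted) was normalized separately and is set beside these values without a test of the difference. Only 2 arrays per group limit the precision.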

Additional observations from a re-analysis of the deposited data

Results flagged for a closer look

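In 6 of the named genes the hybrid comparison and the BALB/c run (ESC against ICM, 3 arrays each, other array type) were both called with opposite signs. The difference itself was not tested, since the runs were normalized separately. Utf1 changed by -2.91 log2 here and 1.78 there, and by -0.68 when P15 was set against BALB/c ICM of its own array type (adjusted p = 0.405, limma). Pou5f1 changed by -2.12 and 1.60, and by -0.79 against that BALB/c ICM (adjusted p = 0.18). Socs3 changed by -2.64 and 1.81, and by -0.15 (adjusted p = 0.74). Rps13 changed by -2.69 and 1.64, and by -1.07 (adjusted p = 0.212). Klf6 ran the other way, with 1.41 here and -1.95 there, and -0.99 against that BALB/c ICM (adjusted p = 0.0292). Herpud1 likewise had 1.34 and -1.50, and -0.39 against that BALB/c ICM (adjusted p = 0.285). The hybrid ICM stood above the BALB/c ICM by 2.24, 1.33, 2.49 and 1.64 log2 for Utf1, Pou5f1, Socs3 and Rps13, and the Klf6 difference was -2.40. Over all genes called here and measured in both runs, 231 of 4624 (5%) were called the opposite way, 135 higher here and 96 lower here. Strain, array type and the brightness of the ICM arrays cannot be told apart in these differences.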

How the results depend on the processing

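Against 4813 calls, 2419 higher and 2394 lower, 2954 were made without background correction (1494 higher and 1460 lower), 2931 of them among the 4813 with the same sign. Cyclic loess gave 1560 falls, and in all kept 2626 of the 4813 calls and turned 6. Median scaling turned 178 and gave 1856 rises and 582 falls among genes detected on both ICM arrays, and 1856 and 270 among those detected on all 4. Testing only probes detected on all 4 arrays gave 1802 calls (444 higher and 1358 lower), and array weights gave 267 rises among genes detected on both ICM arrays. A fit of the 4 arrays alone gave 2410 calls (1321 higher and 1089 lower), with 165 rises and 921 falls among genes detected on both ICM arrays and 761 falls among those detected on all 4. BALB/c ICM in place of hybrid ICM gave 2264 (1159 higher and 1105 lower). Counting only genes with both means above the higher ICM floor, chosen after seeing the data, gave 1103 (498 higher and 605 lower), and leaving out calls whose brighter group was not detected, also chosen then, 4507. The cause of these shifts was not tested beyond the fewer arrays or genes that some settings use.

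Leaving out 1 array gave 3959 to 5123 calls (1958 to 2589 higher and 2001 to 2534 lower). Among genes detected on both ICM arrays it gave 323 to 427 rises and 1446 to 1598 falls, and among those detected on all 4, 323 to 427 rises and 1125 to 1281 falls. With 1 array left in a group, that array is assumed to vary like the other groups. With the replicate number as a block 4807 genes were called. The deviations of same-numbered ICM and P15 arrays correlated at 0.07. This 1 correlation cannot exclude a shared batch, and the labels do not say what the number marks. No pairing was used in the main fit.

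Over 132 named genes and 18 settings other than BALB/c ICM, 2214 of 2326 values kept their side of the threshold, 96 lost the call, 10 gained it and 6 turned. A change of sign counted as a turn only where the value here or the other was called. Some uncalled values therefore changed sign among those kept, such as Lifr (0.86 here, -0.31 at the lowest). With median scaling Gata4 changed by -1.22, Pou5f1 by 0.38, Tdgf1 by 1.81, Dusp6 by 1.21, Birc5 by 0.68 and Foxm1 by 0.20. Against BALB/c ICM Zfp42 changed by -0.37, Klf4 by -0.36, Dmrt1 by 0.16, Klf6 by -0.99, Smad4 by -0.073, Anln by -0.26, Herpud1 by -0.39 and Ctsc by 1.14. Leaving out ICM replicate 2 or a P15 array also ended calls of Klf6 (1.18, 1.37 and 1.42), Dusp6 (-1.23, -1.27 and -1.31), Rps13 (-2.40 and -2.58) and Birc5 (-1.77). The floors of 6.41 and 7.41 log2 limit what the ICM arrays could show.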

Other observations

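Genes of the oxygen and stress response were higher in P15 in 13 of 28 tested and lower in 1, and 8 of the 13 were detected on no ICM array. Of the 12 detected on both ICM arrays 4 were higher and 1 lower. Their median log2 change of 0.54 lay 1.5 above that of all genes so detected, 0.69 with cyclic loess and 1.82 with median scaling. Against BALB/c ICM 6 of the 28 were higher and 4 lower, and in the BALB/c run 6 of 27 were higher and 4 lower. Pdia3, a disulfide isomerase of the endoplasmic reticulum, had 9.13 and 8.18 on the ICM arrays and 10.99 and 11.09 on the P15 arrays (2.39 ± 0.35 (SE), adjusted p = 3.13e-05, limma). Dnajb1, a heat shock cochaperone, had 11.24 and 11.04 on the ICM arrays and 13.10 and 13.11 on the P15 arrays. Xbp1, a transcription factor of the unfolded protein response, and Herpud1, of protein degradation at the endoplasmic reticulum, changed by 1.09 and 1.34 log2 here and by 1.33 and -0.39 against BALB/c ICM.

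Of 39 glutathione and detoxification genes 6 were higher and 11 lower. Gsto1, a glutathione transferase, had 10.86 and 10.74 on the ICM arrays and 7.38 and 7.26 on the P15 arrays (-3.48 ± 0.25 (SE), adjusted p = 4.87e-08), and Mt2, a metallothionein, had 8.93 and 9.54 on the ICM arrays and 6.16 and 5.90 on the P15 arrays (-3.21 ± 0.69 (SE), adjusted p = 0.000806). Of 26 interferon-inducible and sensing genes 6 were higher and 5 lower. Against BALB/c ICM 7 of the 26 were higher and 0 lower, and in the BALB/c run 9 of 26 were higher and 0 lower. Against hybrid ICM Irf3 fell by 2.86 log2, with a change of -0.66 against BALB/c ICM, and Ifit2, detected on neither P15 array, was at least 4.73-fold lower. Ifitm1, a membrane protein known from restriction of viral entry and named here after its values were seen, was at least 10.3-fold higher in P15 (10.15 and 10.40), and it was called higher against BALB/c ICM too, where neither BALB/c array detected it. Of 28 epithelial genes 6 were higher and 10 lower, of 26 one-carbon genes 5 and 9, of 22 iron genes 4 and 8, of 43 genes of ribosome biogenesis 12 and 11, of 21 G1 cyclins and inhibitors 10 and 3, and of 11 neural genes 3 and 1. Aif1, the 1 blood and macrophage gene tested, was lower. The counts against hybrid ICM in this paragraph stand beside 24.2% higher and 23.9% lower over all genes tested. Of the 10 higher G1 cyclins and inhibitors, however, 9 were detected on no ICM array. Both ICM arrays detected 6 genes of that list, of which 1 was higher and 3 lower. Against BALB/c ICM 1 of the 28 epithelial genes was higher and 9 lower, and in the BALB/c run 2 of 26 were higher and 11 lower.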
